A study of Rattus norvegicus with 25 samples.

Results

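The genes described here are the cytosolic ribosomal protein genes of rat liver, which encode the protein parts of the ribosome outside mitochondria. They were chosen by name: every probe of a CodeLink UniSet Rat I array whose annotated symbol starts with Rpl or Rps and a digit, or is Rpsa, Rplp0, Rplp1 or Rplp2, without the S6 kinase genes. This gave 27 probes of 9911 and 24 genes of 6518 named genes, with the brightest probe standing for each gene. Of the 24 genes, 12 belong to the small subunit and 12 to the large subunit, and the stalk protein gene Rplp1 is counted with the large subunit. A further 7 probes carry several symbols and were not used.

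The ribosome joins a small subunit, which reads the mRNA, to a large subunit, which forms the peptide bond, and each ribosomal protein is usually present once per ribosome. In mammals most ribosomal protein mRNAs begin with an unbroken run of pyrimidines, the terminal oligopyrimidine (TOP) motif, through which their translation follows mTOR signalling. Liver is a tissue of heavy protein synthesis, and ribosomal protein mRNAs are among its most abundant transcripts.

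All 25 arrays measured liver RNA of single male Sprague-Dawley rats in 5 groups that differ in pyrroloquinoline quinone (PQQ), a redox cofactor known from bacterial enzymes. The repletion group (4 rats) was PQQ deficient and then received PQQ by intraperitoneal injection at 1.5 mg per kg body weight every 12 h over 36 h. The depletion group (3 rats) was PQQ supplemented and then ate the deficient diet for 48 h. Both switches were made at 6.5 weeks of age. The deficient group (6 rats) ate the basal ASD diet without PQQ, and the supplemented group (6 rats) ate that diet with PQQ. The dams of these 4 groups were 10 weeks old and ate the corresponding diet for the last 10 days of gestation, and the pups then kept it. The chow group (6 rats) ate standard laboratory chow, so it differs from the others in the whole diet and not in PQQ alone. Injection without PQQ was not analysed here, so the PQQ given and the injection itself cannot be told apart in the repletion group. Liver is a mixture of cells, and in such bulk RNA fewer cells of a type and less RNA per cell cannot be told apart.

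Intensities were background corrected, quantile normalized and placed on a log2 scale, and groups were compared with limma over the probes brighter than the median of their array in 50% or more of the samples of some group. A gene is said to have risen or fallen where its Benjamini-Hochberg adjusted p, taken over all tested probes, was under 0.05. Arrays chow 1 and chow 2, and arrays supplemented 5 and supplemented 6, were nearly identical, with an SD of the log2 ratio over probes of 0.1355 for the chow pair and 0.1121 for the supplemented pair, against at least 0.229 in any other pair. The mean of each pair stood for 1 sample (named chow 1 and supplemented 5), which left 23 samples. Whether the arrays of such a pair came from different rats was not tested, so the rat counts above take each array as 1 rat. Spots marked defective recurred on the same arrays and divided the arrays into 5 sets. All repletion arrays fell in set 5 with chow 4 to 6, and all depletion arrays in set 4 with deficient 6. The other 5 deficient arrays shared set 3 with supplemented 4 to 6. Supplemented 2 and 3 formed set 2, and set 1 joined supplemented 1 with chow 1 to 3. What makes a set (a print run, a day or a shipment) is not given in the sources used here. Of the 5 hepatocyte markers, Alb, Apoc3 and Apoa1 had mean log2 intensities of 15.29 to 15.41, Tat 10.45 and Hnf4a 8.404 (percentile 59.31). Of the 4 lymphocyte markers, Cd3d and Ptprc were above background on all 25 arrays, at percentiles 23 and 39.96, while Cd8a was so on 6 and Cd4 on 1.

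Start sites are shown first because the pyrimidine run is the sequence feature that these mRNAs are known for. RefSeq promoter windows (build GRCr8) were found for 21 of the 24 genes. In 11 of these 21 (52.4%) the annotated start base was C and at least 4 more pyrimidines followed it, against 2.63% of all 33469 windows in that table. The motif was read on the gene's own strand from the start base only. The 30 bases below hold 15 bases before the annotated start and 15 from it, and the capitals mark the unbroken pyrimidine run that begins at the start base. The first 7 genes meet this criterion. The last 4 do not, and they are shown because Rpsa, Rpl21 and Rps27l feature in the results and Rps6 is the substrate of S6 kinase.
Rps18: cacgtcacttccgctCTCTCTTCCacagga
Rps26: gagagccgccgggtcCTCTTTCgagtcttg
Rps15: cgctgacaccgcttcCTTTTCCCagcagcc
Rpl10: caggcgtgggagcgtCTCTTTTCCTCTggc
Rpl10a: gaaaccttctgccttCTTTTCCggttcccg
Rpl37a: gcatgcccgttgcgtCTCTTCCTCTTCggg
Rplp1: gcaggcgcatgtgatCCTTTCCTCagctgc
Rpsa: cctttccgcgctaccCTggaacgggtccgt
Rpl21: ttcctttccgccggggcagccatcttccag
Rps27l: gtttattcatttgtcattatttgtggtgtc
Rps6: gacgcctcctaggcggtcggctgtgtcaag

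In GRCr8 the Rps18 window is chr20:4933730-4933759 on the plus strand and the Rpsa window is chr8:128728864-128728893 on the plus strand. The Rpl21 window is chr12:13386139-13386168 on the minus strand and the Rps27l window is chr8:76443643-76443672 on the plus strand. The longest run, 12 bases, was found in both Rpl10 and Rpl37a. The Rpl21, Rpsa and Rps6 windows hold pyrimidine stretches before the annotated start. In every gene, whether the criterion is met rests on that annotated start, and a transcript that starts elsewhere would have another first base.

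The genes were bright. Of the 24, 21 had a mean log2 intensity of at least 12, which placed them at percentile 96.47 or higher among all probes, and all were above background on every array where the spot was usable. Rpl10, needed in the last steps of large subunit maturation, was the brightest at 14.75 (percentile 99.71). Rps27l, a paralogue of Rps27, lay at 8.19 and Rpl13a at 8.35. Rpl28, at 6.42, was the dimmest and failed the filter in every comparison, so 23 genes were tested. Levels of different genes are not compared further, since each comes from a different probe.

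**Figure D1:**
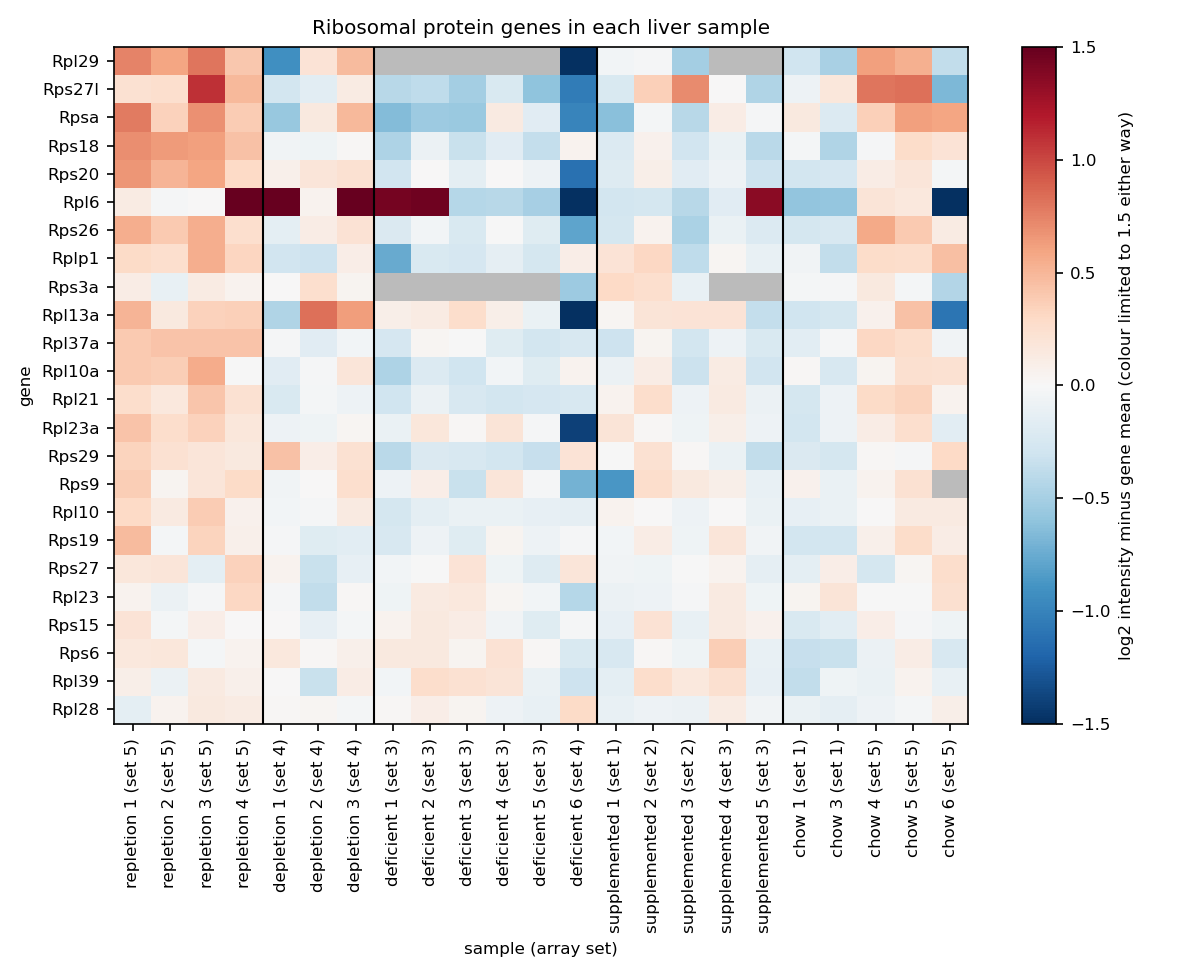
Each row is a gene and each column a liver sample, grouped as repletion, depletion, deficient, supplemented and chow with the array set in brackets. Colour gives the log2 intensity minus the gene's mean over samples (red above, blue below, limited to 1.5 either way), and grey marks defective spots. The repletion columns are red for most genes, chow 4 and 5 share much of that colour, and deficient 6 holds most of the deepest blue.

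Some spots and arrays need to be named before the results. The Rpl29 and Rps3a spots were defective on all 8 arrays of set 3, so for these 2 genes only deficient 6 represents the deficient group, and any difference from that group rests on 1 array that stood apart. The Rps9 spot was defective on chow 6. Array deficient 6 stood apart: of 3059 bright probes, 457 lay more than 1 log2 unit below their median over arrays, against 163 in chow 6, 97 in depletion 1 and 5 to 75 in the other arrays. Its median intensity before normalization was 120.35 and that of chow 6 was 103.23, the lowest values of the 25 arrays, which otherwise ranged up to 281.01.

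Of the 9 comparisons, repletion against the deficient diet had the most genes called, the question being what 36 h of PQQ injections did to the liver of deficient rats. Of the 23 tested genes 14 rose and none fell, where 15.5% of all 5430 tested probes rose and 20.8% fell (36.3% in all). The 14 include Rpl29 and Rps3a, and without these 12 of 21 rose. In every fit that left out 1 sample, 11 of the 14 calls stayed, and those of Rpl29, Rps3a and Rps19 did not. The median log2 difference of the 23 genes was 0.52, against -0.03 over all tested probes, and all 23 differences were above 0, against 47.4% of all probes. Both subunits shared in this, with 8 of 12 small subunit genes and 6 of 11 large subunit genes risen, and a median of 0.51 in the small and 0.52 in the large subunit. In 11 genes every repletion sample lay above every usable deficient sample, which was the case for 11.6% of all probes.

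Among small subunit genes, Rps18 encodes a protein of the subunit head. Its log2 intensity was 14.83, 14.78, 14.75 and 14.58 in repletion rats 1 to 4, against a lowest, median and highest of 13.67, 13.88 and 14.19 in deficient rats. All 4 repletion samples lay above all 6 deficient samples. The log2 difference was 0.83 (SE 0.13, limma adjusted p = 8.186e-05).

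Rps20, another protein of the head, measured 14.58, 14.43, 14.51 and 14.22 in repletion rats, against 12.80, 13.81 and 13.92 (lowest, median, highest) in deficient rats. The low value belongs to deficient 6, and the other 5 deficient samples also lay below every repletion sample. The difference was 0.79 (SE 0.17, limma adjusted p = 0.001113), and 0.62 without deficient 6.

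Rpsa, the small subunit protein also known as the laminin receptor precursor, gave 13.03, 12.60, 12.95 and 12.64 in repletion rats, against 11.26, 11.70 and 12.40 in deficient rats. The groups did not overlap, and deficient 4 was the sample closest to the repletion range. The difference was 1.01 (SE 0.22, limma adjusted p = 0.001328). Its dimmer second probe gave 1.33 (adjusted p = 0.001386).

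Rps27l showed the steepest difference among genes measured in more than 1 deficient rat. Its log2 intensity was 8.41, 8.44, 9.29 and 8.67 in repletion rats, against 7.14, 7.73 and 7.96 in deficient rats. The groups did not overlap, and repletion 3 was the highest sample. The difference was 1.05 (SE 0.26, limma adjusted p = 0.003936).

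Rps26, which lies near the mRNA exit of the small subunit, rose by 0.68 (adjusted p = 0.003112). Rps29, a zinc-binding protein of the head, rose by 0.43 (adjusted p = 0.01329). Rps19, whose gene is mutated in human Diamond-Blackfan anaemia, rose by 0.31 (adjusted p = 0.04557), a call that was lost when any of 11 single samples was left out. Rps19 has a dimmer second probe with a difference of 0.20 (adjusted p = 0.6816). Rps6, the S6 kinase substrate, differed by 0.03, Rps15 by 0.06 and Rps27 by 0.12, and none of these 3 passed the test.

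Among large subunit genes, Rpl21 measured 13.08, 12.98, 13.23 and 13.04 in repletion rats, against 12.52, 12.57 and 12.72 in deficient rats. The groups did not overlap, and deficient 2 was the highest of an otherwise tight deficient group. The difference was 0.50 (SE 0.11, limma adjusted p = 0.001228), and the dimmer Rpl21 probe gave 0.24 (adjusted p = 0.05347).

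Rpl37a, a zinc-binding protein, measured 14.61, 14.65, 14.65 and 14.65 in repletion rats, against 13.94, 14.005 and 14.24 in deficient rats. The repletion samples were almost equal, and all lay above the deficient ones. The difference was 0.57 (SE 0.10, limma adjusted p = 0.000258).

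Rplp1, an acidic protein of the stalk that recruits elongation factors, rose by 0.61 (adjusted p = 0.007307), Rpl10a by 0.52 and Rpl10 by 0.36. Rpl29 measured 13.40, 13.25, 13.46 and 13.06 in repletion rats, against 10.93 in deficient 6 alone, and its difference of 2.36 (adjusted p = 0.001471) therefore has no spread of its own on the deficient side. Rpl39, at the mouth of the exit tunnel, differed by 0.01 and was the gene with the smallest difference, followed by Rps6 and Rps15. Rpl23, Rpl23a, Rpl13a, Rpl6 and Rps9 did not pass the test, with differences of 0.10 to 0.73. Of the tested genes with a window, 7 of 10 that met the start criterion (C and at least 4 more pyrimidines) rose. Among those that did not meet it 5 of 10 rose, and Rpl29 and Rps3a are included in these counts. Rps9 and Rpl29 did not meet the criterion because their runs of 7 and 6 pyrimidines begin with T.

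**Figure D2:**
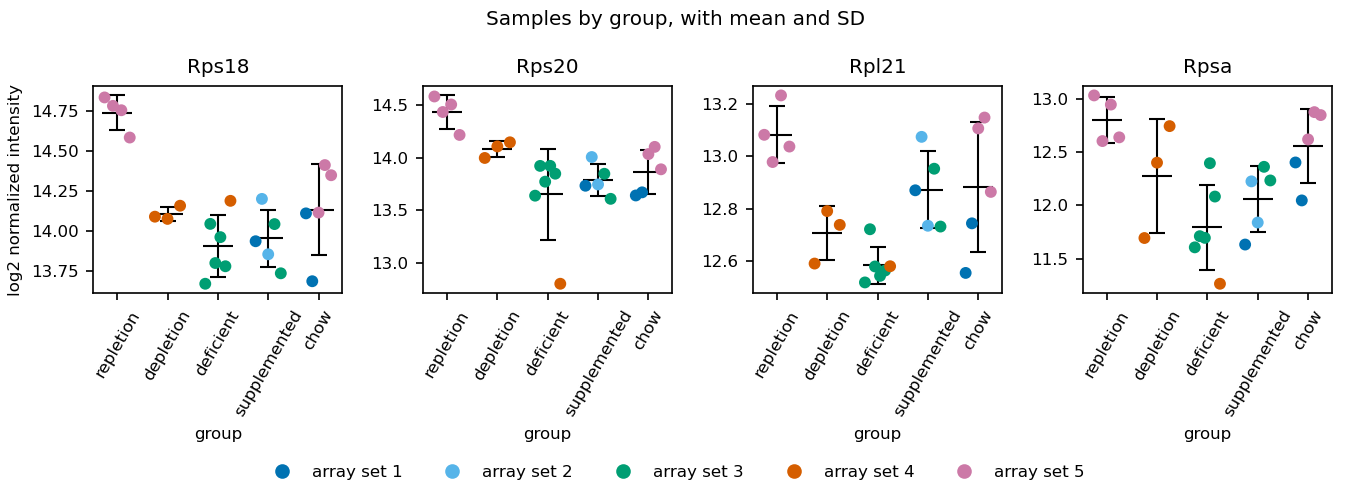
Points are samples coloured by array set, placed by group from repletion to chow. The vertical axis is log2 normalized intensity with a separate range for each gene, and black bars give the mean and SD of the group. Repletion samples sit above deficient samples in all 4 genes, and in Rpl21 and Rpsa the chow samples of set 5 reach the repletion range.

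The array sets bear on this comparison, because all 4 repletion arrays are in set 5 and no deficient array is. Chow rats provide the comparison inside 1 diet: chow 4 to 6 are in set 5 and chow 1 to 3 in set 1. None of the 23 genes was called between chow 4 to 6 and chow 1 to 3, where limma called 3.15% of all 5367 tested probes. The median difference of the genes was nevertheless 0.27, against -0.03 over all probes, and 20 of the 23 differences were above 0, against 47% of all probes. In 12 genes all 3 chow 4 to 6 samples lay above both chow 1 to 3 samples, which was the case for 18.5% of all probes. Rpl21, Rplp1, Rps18, Rps19 and Rps26 had an unadjusted p under 0.05, which makes 5 of 23, against 18% of all probes. From the signals in the authors' deposited table, limma called 11 of the 23 genes in this chow comparison, all higher in chow 4 to 6, with a median of 0.76 against 0.11 over all probes, 3.3% of which were called.

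Rps18 measured 14.12, 14.41 and 14.35 in chow 4 to 6, against 14.11 and 13.69 in chow 1 to 3, a difference of 0.39 (limma adjusted p = 0.1991). Rpsa measured 12.62, 12.87 and 12.85 in chow 4 to 6, against 12.40 and 12.05 in chow 1 to 3, a difference of 0.56. Rps26 measured 14.72, 14.55 and 14.29 in chow 4 to 6, against 13.89 and 13.92 in chow 1 to 3, a difference of 0.62. In each of these genes the 2 kinds of chow array did not overlap, although the rats had the same diet.

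The comparisons of repletion with deficient and of chow 4 to 6 with chow 1 to 3 share no sample. Their differences had the same sign in 20 of 23 genes and were larger for repletion minus deficient in 19. Across the 23 genes Pearson's r was 0.53 and Spearman's rho 0.46, and over 5365 probes r was 0.61. These correlations are across genes, which are not independent replicates, and are given as a description.

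**Figure D3:**
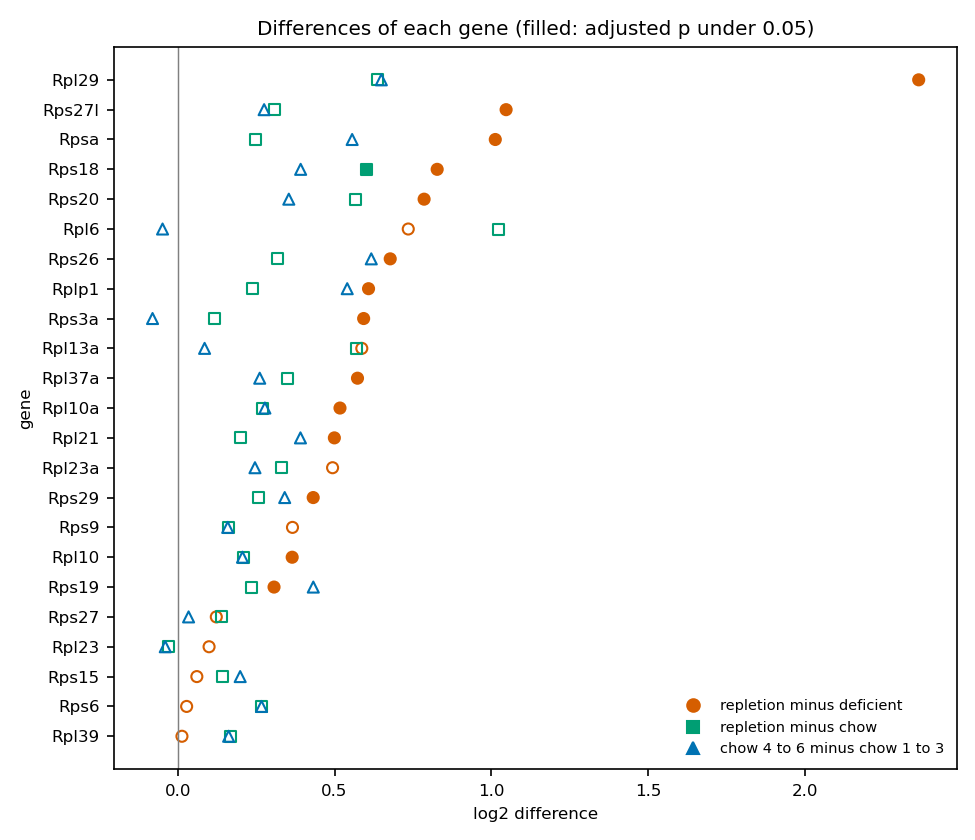
Each row is a gene and the horizontal axis is the log2 difference for repletion minus deficient (circles), repletion minus chow (squares) and chow 4 to 6 minus chow 1 to 3 (triangles). Filled symbols have an adjusted p under 0.05, and for Rpl29 and Rps3a the circle rests on 1 deficient sample. Triangles lie right of 0 in 20 of 23 genes and mostly left of the circles.

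When the array set entered the model as a fixed block, none of the 14 genes kept its call between repletion and deficient rats and the median difference of the 21 genes that could be estimated was 0.08. The same model called 1.18% of all probes. In it set 5 is joined to the deficient and supplemented groups through 1 sample, supplemented 1, which shares set 1 with chow 1 and 3, so these blocked values rest on that sample. Rplp1, Rps19 and Rps29, called without the block, differed by -0.11, -0.0028 and -0.062 with it. Rps18 then differed by 0.45 (SE 0.28, adjusted p = 0.8047) and Rpsa by 1.02 (SE 0.48, adjusted p = 0.6762), while Rpl21 differed by 0.08 and Rps26 by 0.06. With the set as a random block (consensus correlation 0.543) the median was 0.42, with no call among the genes and 0.239% of all probes called.

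Inside set 5, where repletion can be set against chow 4 to 6 directly, no gene was called and 0.608% of all probes were. The median difference of the genes there was 0.13, against 0.0019 over all probes, and only Rpl23 had a difference below 0 (-0.012). Rps18 measured 14.74 in repletion rats and 14.29 in chow 4 to 6 (means, n = 4 and n = 3), a difference of 0.44 (SE 0.12, limma adjusted p = 0.1566). For Rps20 the means were 14.43 in repletion rats and 14.01 in chow 4 to 6, a difference of 0.43 (adjusted p = 0.1815). In Rps18, Rps20 and Rpl37a the 4 repletion samples lay above the 3 chow samples of the same set. Rpl37a differed by 0.24 (limma adjusted p = 0.399). The share of all probes without overlap inside set 5 is not given here. Rpl21 differed by 0.04, Rpsa by 0.02, Rps26 by 0.07 and Rplp1 by 0.02 in the same comparison.

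**Figure D4:**
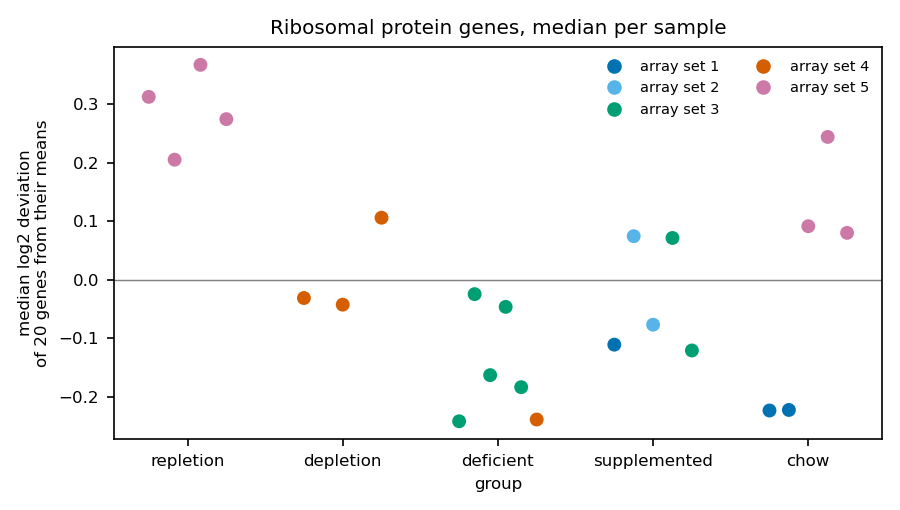
Each point is a sample, placed by group and coloured by array set, and the vertical axis is the median log2 deviation of 20 genes (those usable in all samples and past the filter) from their own means. Repletion samples lie between 0.21 and 0.37, chow 4 to 6 between 0.08 and 0.24, and chow 1 to 3 at -0.22.

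Over the 20 genes usable in every sample, the median deviation per sample averaged 0.29 ± 0.07 in repletion rats (SD, n = 4), 0.01 ± 0.08 in depletion rats (n = 3), -0.15 ± 0.09 in deficient rats (n = 6), -0.03 ± 0.10 in supplemented rats (n = 5) and -0.01 ± 0.21 in chow rats (n = 5). Within chow the sets lay apart, with 0.09, 0.24 and 0.08 in chow 4 to 6, against -0.22 and -0.22 in chow 1 to 3. Between repletion and deficient rats, 390 other probes of log2 intensity 12 or more had a median difference of -0.03. Of these probes 11.5% rose, against 13 of the 21 bright ribosomal protein genes. Between chow 4 to 6 and chow 1 to 3 the median was -0.03 over 384 other bright probes. It was 0.27 over the 21 bright ribosomal protein genes, and none rose in either. The part of brightness in these differences was not tested.

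Compared with the supplemented group, which had PQQ all along, 6 of 23 genes rose in repletion rats and none fell, where 8.6% of 5429 probes rose and 10.6% fell (19.2% in all). The median difference was 0.29, and 21 differences were above 0, against 46.8% of all probes. Rps18 rose by 0.78 (SE 0.13, limma adjusted p = 0.001034), with supplemented values of 13.94, 14.20, 13.86, 14.04 and 13.74 all under the repletion samples given above. Rpsa rose by 0.75, Rps20 by 0.65, Rps26 by 0.63, Rpl37a by 0.59 and Rpl10a by 0.42, while Rpl21 differed by 0.21 (adjusted p = 0.1988). The Rpl10a call stayed in 17 of 23 fits that left out 1 sample and the Rpsa call in 19, while the other 4 calls stayed in all. In 7 genes the groups did not overlap, against 12.1% of all probes. No call remained with the array set as a fixed block, which again rests on supplemented 1, where 1.32% of all probes were called, the median was 0.079 and Rpl21 differed by -0.18.

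Compared with all chow rats, 1 of 23 genes rose in repletion rats and none fell, where 0.571% of 5430 probes rose and 0.773% fell (1.34% in all). That gene was Rps18, with 14.74 ± 0.11 in repletion rats and 14.14 ± 0.28 in chow rats (SD, n = 4 and n = 5), a difference of 0.60 (SE 0.13, limma adjusted p = 0.02328). The call was lost without chow 1, chow 3, repletion 1, repletion 2 or repletion 3. The median difference was 0.26, and 22 differences were above 0, against 49.9% of all probes. Rps20 differed by 0.57 (adjusted p = 0.1028), Rpsa by 0.25 and Rpl21 by 0.20. Rps18, Rps20 and Rpl37a were the genes whose repletion samples all lay above the chow samples, 3 of 23 against 3.5% of all probes. With the array set as a fixed block Rps18 differed by 0.44 (adjusted p = 0.07698) and lost its call, while Rps20 was called (0.43, SE 0.11, adjusted p = 0.04939), where 2.01% of all probes were.

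The lasting deficiency was tested by deficient against supplemented rats. None of the 23 genes was called, where limma called 3.26% of 5455 probes. Rpl21, Rpl29, Rps27l and Rps3a had an unadjusted p under 0.05, which makes 4 of 23, against 18.4% of all probes. The median difference was -0.12, and 3 differences were above 0, against 50.9% of all probes. Rps18 averaged 13.91 ± 0.19 in deficient rats and 13.96 ± 0.18 in supplemented rats (SD, n = 6 and n = 5), a difference of -0.05 (SE 0.12). Rps20 differed by -0.14 and Rpsa by -0.27, each with overlapping groups. Rpl21 was 12.58 ± 0.07 in deficient rats and 12.87 ± 0.15 in supplemented rats, with no overlap, yet the difference of -0.29 did not pass (SE 0.10, limma adjusted p = 0.1257). Genes with no overlap were Rpl21, Rpl10 and, with 1 deficient sample each, Rpl29 and Rps3a, which makes 4 of 23 against 1.63% of all probes. Inside set 3, with 5 deficient and 2 supplemented samples, Rpl21 differed by -0.26 (adjusted p = 0.4068) and Rps18 by -0.04. No gene was called there, and 0.184% of all probes were. With the set as a fixed block no gene was called either, where 0.24% of all probes were. Leaving out deficient 6 moved the median to 0.019.

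Deficient rats compared with chow rats had 4 genes fallen and none risen, where 12% of 5455 probes fell and 15.4% rose (27.4% in all). Over the 23 genes the median was -0.20, and 5 differences were above 0, against 52.8% of all probes. Samples did not overlap in 2 genes, against 4% of all probes, and both (Rpl29 and Rps3a) have deficient 6 as their only deficient sample. Rpsa averaged 11.79 ± 0.39 in deficient rats and 12.56 ± 0.34 in chow rats (SD, n = 6 and n = 5), a difference of -0.77 (SE 0.21, limma adjusted p = 0.009083). Rps27l averaged 7.66 ± 0.28 in deficient rats and 8.39 ± 0.63 in chow rats, a difference of -0.74 (adjusted p = 0.03024). For Rpl21 the difference was -0.30 (adjusted p = 0.03143). Rpl29 also fell (difference -1.73), a value that rests on deficient 6. Rps18 differed by -0.23 and Rps20 by -0.22, without passing. Of these calls only that of Rpsa stayed in every fit that left out 1 sample. The count was 2 without deficient 5, chow 4 or chow 5 and 7 without chow 3. The share of all probes called in those fits is not given here. With the array set as a fixed block, again through supplemented 1, no gene was called, 1.7% of all probes were, and the median was 0.011.

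Supplemented rats compared with chow rats had none of 23 genes called, where 9.46% of 5454 probes were, and 2 genes (Rpl37a and Rpsa) had an unadjusted p under 0.05, against 27.2% of all probes. The median difference was -0.04, and 8 differences were above 0, against 54.1% of all probes. Rpsa differed by -0.50 (SE 0.22, limma adjusted p = 0.1391), Rps18 by -0.18, Rps20 by -0.080 and Rpl21 by -0.011. With the array set as a fixed block only set 1 bears on this comparison, with supplemented 1 alone on the supplemented side, and 2.25% of all probes were called. Rps9 was the 1 gene among them, at 12.36 in supplemented 1, while the other supplemented samples held 13.12 to 13.49.

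The short depletion was compared with the supplemented diet from which these rats came. None of 23 genes was called, where limma called 0.184% of 5443 probes, and 0 genes had an unadjusted p under 0.05, against 14.6% of all probes. The median difference was 0.09, and 13 differences were above 0, against 51.8% of all probes. Rps18 was 14.09, 14.08 and 14.16 in depletion rats, against 13.94, 14.20, 13.86, 14.04 and 13.74 in supplemented rats, a difference of 0.15 (SE 0.15). The groups overlapped through supplemented 2. Rps20 differed by 0.30, Rpsa by 0.22 and Rpl21 by -0.17. With the array set as a fixed block 6 genes were called, among 28% of all probes, and with the set as a random block no gene and 0% of all probes. In the fixed model the only bridge between depletion rats and the other groups is deficient 6, the array that stood apart, so these calls rest on it.

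Compared with deficient rats, depletion rats had 1 of 23 genes risen and none fallen, where 2.66% of 5444 probes rose and 5.12% fell (7.79% in all). Their median difference was 0.19, and 18 differences were above 0, against 53.9% of all probes. Rpl10, Rps20, Rpl29 and Rps3a did not overlap, 4 of 23 against 4.56% of all probes, with Rpl29 and Rps3a again resting on deficient 6. Rps29 was 15.04, 14.70 and 14.83 in depletion rats, against 14.20, 14.35 and 14.81 (lowest, median, highest) in deficient rats. The groups overlapped because deficient 6 held 14.81, while the other 5 deficient samples were at most 14.39. The difference was 0.47 (SE 0.14, limma adjusted p = 0.0478), and the call was lost when any of 17 single samples was left out. Rps20 differed by 0.43, Rpsa by 0.49, Rps18 by 0.20 and Rpl21 by 0.12, none of them passing. With the array set as a fixed block 9 genes were called, among 39.7% of all probes, and these calls rest on deficient 6 as well.

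Single genes departed from the rest in ways that group labels do not follow. Rpl6, a large subunit protein, took values in separate ranges within groups. It was 12.30, 12.16, 12.18 and 13.72 in repletion rats and 13.71, 12.23 and 13.74 in depletion rats. In deficient rats it was 13.61, 13.64, 11.74, 11.76, 11.68 and 8.68, in supplemented rats 11.90, 11.91, 11.75, 12.00 and 13.53, and in chow rats 11.58, 11.60, 12.37, 12.34 and 9.92. The higher range near 13.6 thus appeared in 4 of the 5 groups and in sets 3, 4 and 5, and never in chow. Supplemented 5 and 6, averaged above, each showed it, with 13.48 and 13.58.

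Array deficient 6 held the lowest sample of several genes. Rpl13a was 6.40 there, against 8.24 to 8.61 in the other deficient rats, and Rpl23a, a protein at the exit tunnel, was 12.02, against 13.32 to 13.61. Rpl13a was also low in chow 6, at 7.25. Other genes did not share this: Rps18 was 14.19 in deficient 6, the highest of its group, and Rps29 was 14.81.

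**Figure D5:**
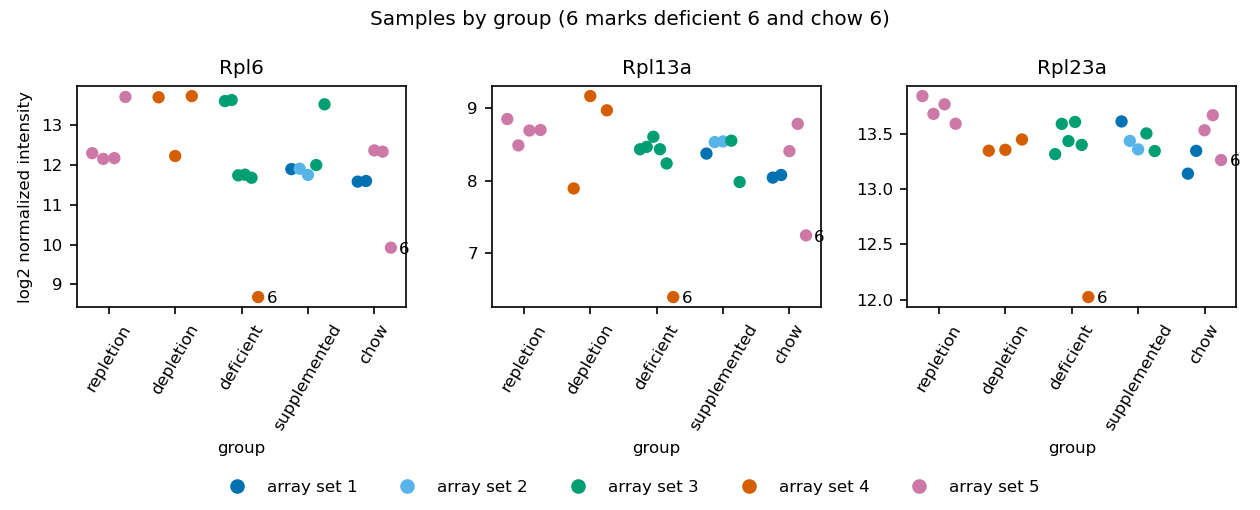
Points are samples coloured by array set, placed by group from repletion to chow, and the vertical axis is log2 normalized intensity with a separate range for each gene. The samples deficient 6 and chow 6 are marked with a 6. Rpl6 splits into ranges near 12 and near 13.6 within groups, and deficient 6 is the lowest sample in all 3 genes.

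Across the 23 samples the genes varied together to a moderate degree. Over 190 pairs of the 20 genes usable everywhere, the median Pearson r was 0.37, and 172 pairs had r above 0. These samples share array sets, so r is a description. Rps20 and Rps26 had r = 0.89, and Rpl10a and Rps18 had r = 0.89. The order of pairs depends on deficient 6 and chow 6: without them Rps18 and Rps20 were the most alike pair (r = 0.93, against 0.65 with them). The mean r to the other genes was 0.09 for Rps27 (0.20 without these arrays), 0.18 for Rpl6 (0.048 without) and 0.21 for Rpl23 (0.095 without). Of 3713 other genes, the 5 most like the mean of the ribosomal protein genes over 23 samples were Rbis (r = 0.89), C5h1orf174 (0.87), Snrnp27 (0.87), Lsm5 (0.86) and Ndufb2 (0.86).

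Related gene lists were set beside these values for repletion against deficient rats, where 15.5% of all probes rose and 20.8% fell. Mitochondrial ribosomal protein genes, which encode the separate ribosome of the organelle, had 13 of 44 risen and 2 fallen, with a median of 0.26. Mrpl54 rose by 1.71 and Mrps9 fell by 0.52. Oxidative phosphorylation genes had 12 of 36 risen and 1 fallen, with a median of 0.39. Cox4i1, a subunit of cytochrome c oxidase, rose by 1.18 and Uqcrc2, of complex III, fell by 0.68. In chow 4 to 6 against chow 1 to 3, 3.15% of all probes were called in either direction and 47% of differences were above 0. The oxidative phosphorylation list had 2 of 36 risen there, a median of 0.31 and 28 differences above 0. The mitochondrial ribosomal list had 2 of 44 risen in the same chow comparison and a median of 0.14.

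Other mRNAs known to carry a TOP start, with the elongation factors, had 1 of 12 risen (Nap1l1, a histone chaperone, by 0.91), none fallen, and a median of -0.12. Translation initiation factors had 1 of 17 risen (Eif4e, the cap-binding protein, by 0.77), 2 fallen and a median of -0.11. Ribosome assembly genes had 2 of 17 risen, led by Nhp2 (1.08), a small nucleolar ribonucleoprotein, and 1 fallen (Tsr1, by 0.33). Nhp2 also differed between chow 4 to 6 and chow 1 to 3, by 1.251 (adjusted p = 0.009217). In the mTOR list 3 of 9 rose and 1 fell: Pdpk1, the kinase upstream of Akt, rose by 1.96 and Mtor itself fell by 0.64. Proteasome subunits had 6 of 28 risen and 4 fallen.

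Markers of other liver cells moved in the same comparison. Kupffer cell markers had 4 of 6 risen and none fallen, with Lyz2 up by 1.03, and their summed intensity was 10800 to 12800 in repletion rats and 8440 to 11900 in deficient rats. Endothelial markers had 2 of 3 fallen, with Flt1 down by 0.73, and stellate markers had 2 of 3 risen. Endothelial sums were 1490 to 1730 in repletion rats and 2130 to 2610 in deficient rats, and stellate sums were 2250 to 2580 in repletion rats and 1820 to 2050 in deficient rats. Hepatocyte markers had none of 5 called, with sums of 129000 in repletion rats (all 4) and 119000 to 139000 in deficient rats. None of the 4 lymphocyte markers on the array passed the filter. Kupffer cell sums were 15100 to 17000 in chow 4 to 6 and 11700 to 13200 in chow 1 to 3, so they too lay apart between array sets. Stellate sums were 2620 to 3660 in chow 4 to 6 and 2240 to 2730 in chow 1 to 3. Endothelial sums were 1810 to 2060 in chow 4 to 6 and 1960 to 2200 in chow 1 to 3. Both overlapped between the sets, with median log2 differences of 0.17 for stellate and -0.16 for endothelial markers. The part of these markers in the ribosomal protein differences was not tested.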

How the data were processed

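Liver RNA was hybridized to 25 single-colour CodeLink UniSet Rat I arrays. The deposited files give a spot intensity and a local background intensity for 10399 spots per array, with a quality flag for defective spots, per the file headers. A further table by the authors holds 1 signal per probe and array, and 28 of its values are 0. For scanner, software, genome build and the authors' normalization, the record is: not given in the sources used here. All sample columns were used.

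Background was corrected with normexp (offset 50) over all spots, 488 control spots were removed, defective spots were set missing and arrays were quantile normalized and taken to log2. Near-identical arrays (SD of the log2 ratio under 0.15) were averaged. Probes brighter than the median of their array in 50% or more of the samples of some group were fitted with limma 3.58.1 in R 4.3.3 (lmFit and eBayes, all groups in 1 fit, 2-sided, Benjamini-Hochberg adjustment over all tested probes, threshold 0.05). For chow 4 to 6 against chow 1 to 3 the chow arrays were divided by the replicate number in their titles, a division that coincides with the array sets. Array sets were inferred from shared defective spots (Jaccard overlap 0.6463 to 0.9556 within sets and 0.1417 to 0.3271 between them). Contrasts with no usable sample on one side were left out. The number of arrays limits the precision. The fit was tested on simulated data first.

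Gene symbols come from GEO's platform annotation: 7359 probes had 1 symbol, 83 several and 2469 none, and 178 probes were named through their accession in RefSeq. Genes named with values were, in each comparison, up to 4 risen and 4 fallen members by size, always Rps18, Rps20, Rpl21 and Rpsa, the brightest and dimmest member, and in the comparison with most calls the 3 smallest differences, with up to 2 risen and 2 fallen genes of each other list. Rps26, Rplp1, Rpl37a, Rpl6, Rpl13a, Rpl23a and other members named beyond this were chosen after their values were seen. The members and gene lists were chosen with earlier results of these data known. Same-numbered samples of different groups did not as a rule deviate together, so numbers were not taken as pairs. Over 36 pairs the median r was -0.03, with a range of -0.24 to 0.68, and 7 pairs had r above 0.1. Alternatives were another background correction, median scaling, the authors' table, defective spots kept, all arrays as samples, no filter, the mean of a gene's probes, array set or replicate number as a block, and each sample left out. Figures were drawn with matplotlib 3.10.9.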

Additional observations from a re-analysis of the deposited data

Results flagged for a closer look

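Within groups of 4 to 6 samples, a sample stood apart from its group by Dixon's criterion in 12 of 92 gene and group combinations (13%). By chance about 1 in 20 would do so. Of the 12, 6 were in deficient 6. Its log2 intensity was 6.40 for Rpl13a, 13.77 for Rpl23, 12.02 for Rpl23a, 12.80 for Rps20 and 13.37 for Rps26, each below the other deficient rats, and 14.81 for Rps29, above them. Elsewhere in the deficient group Rpl10 was low at 14.48 in deficient 1 and Rpl21 was high at 12.72 in deficient 2. Rpl6 was high at 13.72 in repletion 4 and at 13.53 in supplemented 5. Rpl37a was low at 14.61 in repletion 1, in a group whose values were almost equal, and Rpl28 was high at 6.54 in supplemented 4. The causes were not tested.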

How the results depend on the processing

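Array set as a fixed block left 0 genes called and a median of 0.085 for repletion minus deficient, 0 and 0.079 for repletion minus supplemented, 0 and 0.011 for deficient minus chow, 6 and 0.29 for depletion minus supplemented, 9 and 0.30 for depletion minus deficient, and 1 for supplemented minus chow. These fits join the sets through 1 sample, supplemented 1 or, for depletion, deficient 6. As a random block it gave 0 calls for repletion minus deficient (median 0.42, 0.239% of all probes called) and 0 for repletion minus supplemented (0.0921%). The random block also gave 0 calls for deficient minus chow (1.63%) and 9 for depletion minus deficient (26.5%). Within 1 set there were 5 calls (median 0.30, 18.7% of all probes called) for depletion minus deficient, with deficient 6 as the only deficient sample, and 0 for repletion minus chow.

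The authors' table gave 21 calls and a median of 0.85 for repletion minus deficient (35.7% of all probes called). For repletion minus supplemented it gave 18 calls and 0.66 (18.2%). Its median for supplemented minus chow was -0.28. It gave 0 calls for depletion minus deficient (8.7%), 8 for deficient minus chow (22.7%) and 0 for repletion minus chow (1.06%). For chow 4 to 6 minus chow 1 to 3 it gave 11 calls (3.3%) and a median of 0.76. Median scaling gave medians of 0.34 for depletion minus supplemented, 0.41 for repletion minus supplemented and 0.44 for depletion minus deficient. It gave 6 calls for depletion minus deficient (11.1% of all probes called) and 1 for supplemented minus chow (8.76%). Deficient minus chow then had 8 calls (26.9%) and repletion minus chow 0 (1.22%). Median scaling moved the median of all probes to 0.14 for depletion minus supplemented and 0.15 for depletion minus deficient. For depletion minus deficient, scanner background subtraction gave 0 calls (7.77% of all probes called), keeping defective spots 3 (8.26%) and all 25 arrays 2 (8.7%). All 25 arrays gave 3 calls for repletion minus chow (3.05%) and 3 for the chow sets (7.19%).

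Deficient 6 and chow 6 were also left out together, a choice made after seeing the data. The medians were then 0.019 for deficient minus supplemented, 0.37 for repletion minus deficient and 0.36 for the chow sets. There were 2 calls for repletion minus chow (3.12% of all probes called) and 2 for the chow sets (5.21%). Leaving out 1 sample at a time gave 12 to 15 calls (median 0.37 to 0.57) for repletion minus deficient, 4 to 7 for repletion minus supplemented, 0 to 2 for repletion minus chow, 0 to 1 (median -0.15 to 0.019) for deficient minus supplemented, 2 to 7 for deficient minus chow, 0 to 2 for depletion minus deficient and 0 to 1 (median 0.21 to 0.36) for the chow sets. The median for depletion minus supplemented was -0.011 to 0.11. The share of all probes called in each of these fits is not given here. These ranges therefore do not set the genes apart from other probes. With replicate number as a block, 13 genes were called for repletion minus deficient (median 0.39), where 39.8% of all probes were.

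Of Rps18, Rps20, Rpl21 and Rpsa, values that changed sign were not called either way. For deficient minus supplemented, Rps20 became 0.093 with the set as a block or within it and 0.032 without deficient 6 (-0.19 to 0.032 over single samples left out), and Rps18 ranged over -0.10 to 0.015. For depletion minus supplemented, Rpl21 became 0.10 with median scaling and 0.0091 with the mean of probes, Rps18 became -0.12 and -0.028 with the set as fixed and random block, and Rpsa ranged over -0.011 (without depletion 3) to 0.51. With the set as a fixed block, Rpl21 became -0.18 for repletion minus supplemented, Rps18 became -0.080 for depletion minus deficient and Rps20 became 0.17 for deficient minus chow. For supplemented minus chow, the set as a block gave 0.22 for Rpl21 (0.090 as random block), 0.038 for Rps18 and 0.078 for Rps20, and Rpl21 was 0.021 with all arrays and -0.093 to 0.056 over single samples left out. The causes of these changes were not tested. Apart from the fits without 1 sample, the other 190 counts and medians stayed within 1.5 times the count or within the replicate spread. Between 83.59% and 90.26% of probes were above background on an array.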
